A study of Mus musculus with 2 samples.

Results

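Complement genes were followed through the cells of small B16F10 tumours, a mouse melanoma line grown under the skin. The genes were chosen by name and are 9 of the 31053 listed for each library, namely the C1q chains C1qa, C1qb and C1qc, the components C3, C4b and Cfb, the inhibitor Serping1, and the anaphylatoxin receptors C3ar1 and C5ar1. Raw unique molecular identifiers (UMIs, 1 per captured transcript) were counted from 2 droplet libraries, 1 per host genotype. WT hosts carried Atf4 wt/wt and KO hosts Atf4 Δ/Δ, where Atf4 encodes a transcription factor of the stress response. All hosts were C57BL/6 animals that carried Rosa26::CreERT2 and received tamoxifen, so the WT group shares the recombinase and the drug. Each library pooled 2 tumours from mice aged 11 weeks, male and female per the labels, and the injected melanoma cells kept their own Atf4 in both. Deletion was induced throughout the host rather than in 1 cell type, and it can be incomplete.

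Complement is a set of plasma and tissue proteins that tag cells and debris for removal. C1q, built from its A, B and C chains, opens the classical pathway by binding antibody or dying cells, and its proteases then cleave C4 and C2 so that C3 can be split. Factor B amplifies the reaction through the alternative pathway, C1 inhibitor blocks the first proteases, and the fragments C3a and C5a call in myeloid cells through their receptors. In tissues macrophages are the best known source of C1q, while fibroblasts make many of the other components.

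The promoters of C1qb and C1qc are shown because these chains lie in 1 cluster on chromosome 4, and that of C3ar1 because it held 1 of the motifs searched. They were read from RefSeq (GRCm38.p6) and cover 250 bases before to 50 after the RefSeq start of each gene, all on the minus strand, at chr4:136886151-136886450, chr4:136892865-136893164 and chr6:122856108-122856407. Motif positions count from that start. It can differ from the gene bounds given below, which are from GENCODE. It does so for C1qb, C1qc, C3ar1 and C5ar1, most for C1qc and C5ar1. Capitals mark a match to 1 of 5 motifs.

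C1qb promoter: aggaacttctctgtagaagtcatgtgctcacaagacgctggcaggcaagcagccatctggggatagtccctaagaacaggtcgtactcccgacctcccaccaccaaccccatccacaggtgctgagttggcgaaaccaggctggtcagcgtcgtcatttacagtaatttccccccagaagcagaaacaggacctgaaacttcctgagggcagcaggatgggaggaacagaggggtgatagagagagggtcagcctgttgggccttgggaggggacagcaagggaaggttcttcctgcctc
C1qc promoter: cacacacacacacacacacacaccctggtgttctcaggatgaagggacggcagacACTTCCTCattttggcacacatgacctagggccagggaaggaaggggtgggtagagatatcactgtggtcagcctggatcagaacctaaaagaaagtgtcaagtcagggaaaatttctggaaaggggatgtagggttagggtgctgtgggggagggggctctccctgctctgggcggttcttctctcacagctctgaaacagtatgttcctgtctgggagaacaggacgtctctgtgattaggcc
C3ar1 promoter: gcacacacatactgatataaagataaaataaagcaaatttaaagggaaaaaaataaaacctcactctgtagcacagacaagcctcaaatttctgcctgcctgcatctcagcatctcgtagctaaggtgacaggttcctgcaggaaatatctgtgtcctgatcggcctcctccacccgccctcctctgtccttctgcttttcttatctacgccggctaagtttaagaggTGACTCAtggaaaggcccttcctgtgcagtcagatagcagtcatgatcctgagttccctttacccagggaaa

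The motifs were the PU.1 core GAGGAAGT, an interferon-type repeat GAAANNGAA, the STAT palindrome TTCNNNGAA, the C/EBP-ATF element TGATGNAAT and the AP-1 site TGANTCA, each searched on both strands. The C1qc promoter held the PU.1 core at -195 from the start, on the other strand, a motif found in 3.28% of 27025 promoters. The C3ar1 promoter held the AP-1 site at -22, found in 7.93% of promoters. Of the other promoters in the table, that of C5ar1 held the interferon-type repeat at -66, found in 8.57%, and those of C1qb and C3 held none. The STAT palindrome, in 8.47% of all promoters, and the C/EBP-ATF element, in 0.970%, were in none of these 5. C1qa, C4b, Cfb and Serping1 had no entry. A match describes the letters and is not a measured binding site.

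WT gave 38417113 UMIs in 6304 barcodes and KO 38290024 UMIs in 5474, of which 3861 and 3557 passed limits on genes (200 to 5000) and on mitochondrial UMIs (up to 7.5%). Their median depth was 3920 UMIs in WT and 6279 in KO, and 10 barcode sequences occurred in both libraries. Cells were placed in classes by the summed level of marker genes, with no complement gene among them, which gave 1455 WT and 1052 KO cells in the macrophage and monocyte gate, 189 and 226 fibroblasts, 69 and 27 endothelial cells and 1754 and 1834 melanoma cells. No defining marker of these 4 classes was at 0 in its own gate. Atf4 fell from 186 to 40.4 CPM (a gene's UMIs for each 1000000 UMIs of the gate) in macrophages, from 255 to 44.8 in fibroblasts and from 64 UMIs to 0 in endothelial cells, and was at 226 and 202 CPM in melanoma cells. UMIs of 4 Y-linked genes were absent from the WT host gates, with 0 in macrophages and fibroblasts, against 171 and 73 in KO, while Xist had 2020 UMIs in WT macrophages and 221 in KO. The mix of sexes therefore moved with the genotype, against the labels of the WT pool. Most gate ratios of the members are also given for Xist-only cells, in which Xist but no Y-linked gene was seen, and for KO Y-only cells, the converse, set against WT Xist-only cells. With 1 library per genotype there was no replicate and no test, and intervals cover counting error at 95% only.

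The C1q chains were by far the most abundant complement transcripts and came almost wholly from macrophages. C1qa (ENSMUSG00000036887, chr4:136895917-136898803, minus strand) encodes the A chain, and 93.2% of its UMIs in kept cells in WT and 94.98% in KO were in the macrophage gate. For C1qb (ENSMUSG00000036905, chr4:136880129-136886187, minus strand), the B chain, these shares were 92.6% and 93.8%. For C1qc (ENSMUSG00000036896, chr4:136889804-136893065, minus strand), the C chain, they were 92.0% and 94.3%. The gate thus held nearly the whole of each chain in both libraries. Macrophage C1qa stood at 2595 CPM in WT and 3672 in KO, C1qb at 2799 and 3279, and C1qc at 1677 and 2083.

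Outside macrophages C1q was low. Melanoma cells had 9.10 and 14.0 CPM of C1qa, which is 3.49% of the whole-library level in WT and 5.52% in KO. The summed macrophage markers, which melanoma cells should lack, stood at 5.39% and 6.76% of their library level in the same cells, so the share of C1qa was no higher than this background. The melanoma cell with the most C1qb nevertheless held 15 UMIs of it in WT and 18 in KO, and without the cells called doublets the log2 excess of summed C1q in macrophages over melanoma cells went from 7.97 to 9.03 in WT and from 7.90 to 8.98 in KO. How free RNA and doublets share in these UMIs was not tested. Fibroblasts had 5 C1qa UMIs in each library and endothelial cells 2 and 1. The 22 WT and 11 KO dendritic cells, in which 1 and 3 of 10 defining markers were at 0, had no UMI of any chain, which at 3 UMIs allows up to 77.7 CPM of each in WT and 186 in KO. After thinning to 2000 UMIs per cell, 82.6% of 610 WT macrophages and 94.5% of 435 KO macrophages held a C1qa UMI (54.2% and 62.7% unthinned), against 1.59% and 2.22% of melanoma cells (5.59% and 7.31% unthinned). Cells under 2000 UMIs were left out by thinning, so the thinned shares describe the deeper macrophages and not the whole gate. One KO cell of the 11 in the neutrophil gate held 12 C1qb UMIs, and the others none. Median depth was 1744 and 1708 UMIs in macrophages and 11380 and 10750 in melanoma cells.

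**Figure D1:**
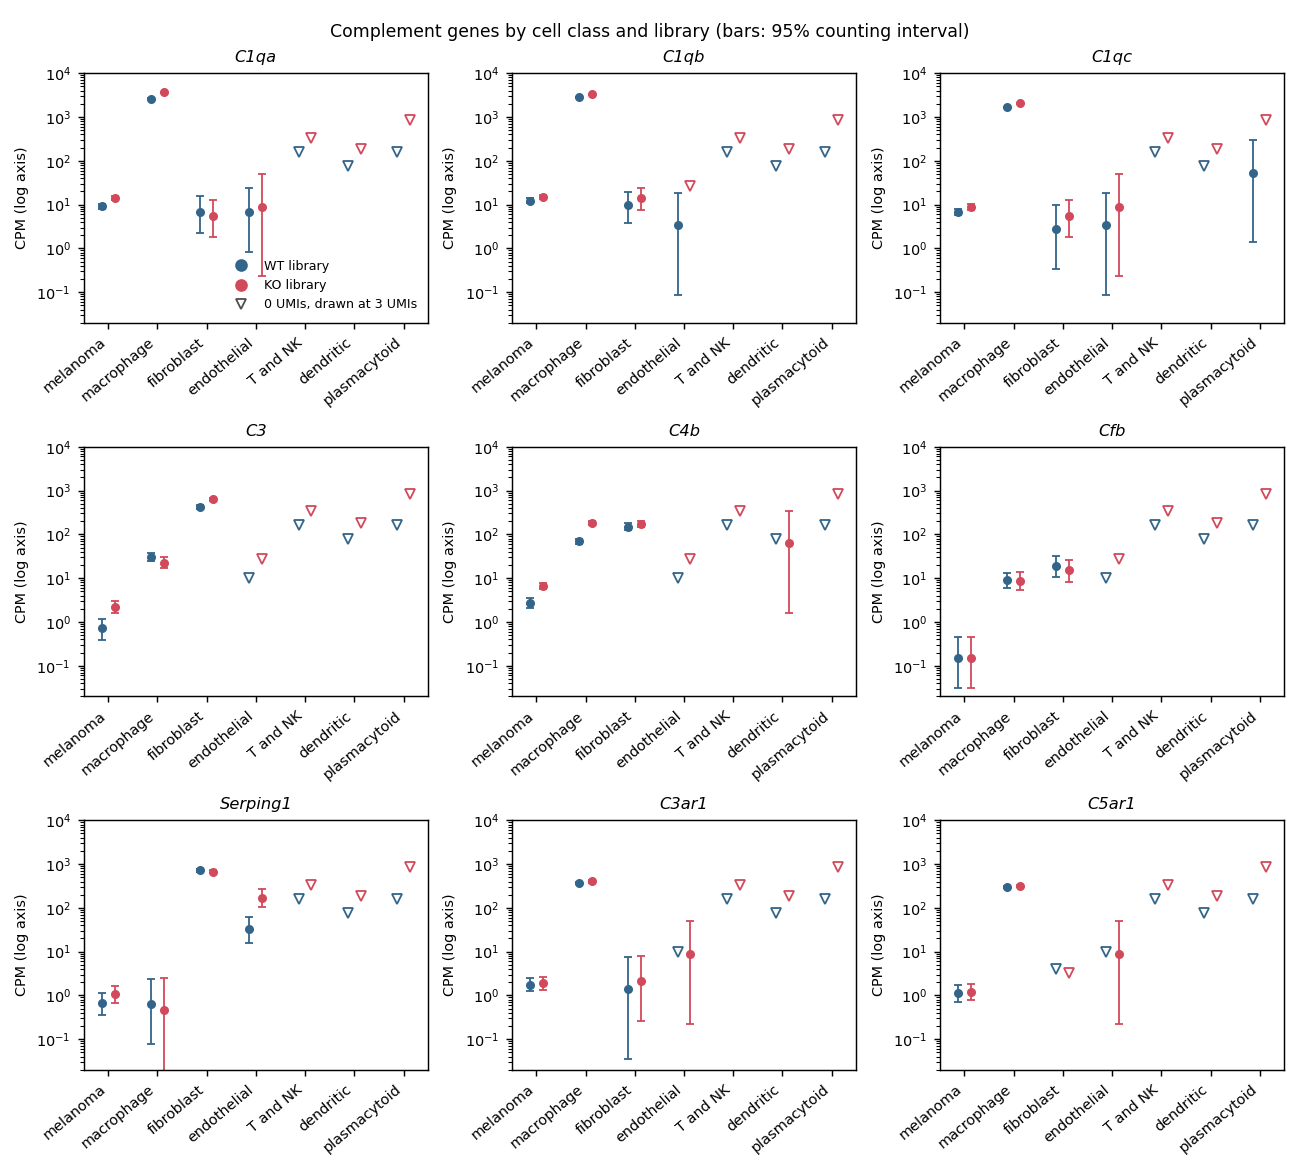
Level of each complement gene by cell class, in CPM on a log axis, for the WT library (blue) and the KO library (red); bars are 95% Poisson intervals and open triangles mark classes with 0 UMIs, drawn at the level of 3 UMIs. Among the plotted classes with a UMI, C1qa, C1qb, C1qc, C3ar1 and C5ar1 are highest in macrophages, C3 and Serping1 in fibroblasts, and C4b in both, with 69.4 CPM in WT and 181 in KO macrophages.

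Within the gate, cells were sorted into 7 states by marker lists, with 276 WT and 96 KO cells left in none. Many cells lay near a boundary, 670 of 1455 in WT and 429 of 1052 in KO, so states are ranges and not types. Resident-type cells (Lyve1, Cd163, Folr2) had the highest C1qa, at 5152 CPM (4905 to 5409) in WT and 5601 (5424 to 5783) in KO. Cells of the Vcam1 Fcrls state followed at 4217 (4049 to 4389) and 5192 (4936 to 5457), and in KO the intervals of these 2 states overlapped. The interferon state held 2693 and 3703 CPM. Levels were lower again in the Arg1 hypoxic state, with 1268 and 1939 CPM, the Il1b Cxcl2 state, with 1384 and 1385, and the MHC class II state, with 1038 and 1754. In WT the interval of the hypoxic state overlapped those of the Il1b Cxcl2 and MHC class II states. In KO the interval of the MHC class II state overlapped those of the hypoxic and Il1b Cxcl2 states. Monocytes (Ly6c2, Chil3, Plac8) were last in both libraries, at 121 CPM (79.0 to 177, 26 UMIs) in WT and 332 (250 to 432, 55 UMIs) in KO.

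For C1qb and C1qc, too, resident-type and Vcam1 Fcrls cells were at the top and monocytes at the bottom. C1qb was at 4395 CPM in resident-type and 4245 in Vcam1 Fcrls cells of WT, within overlapping intervals, and at 4347 (4191 to 4508) and 4950 (4700 to 5209) in KO, where Vcam1 Fcrls cells came first. C1qc was at 3051 and 2748 CPM in these states in WT and at 3027 and 2982 in KO, with overlapping intervals in both. Summed over the chains, resident-type cells were above monocytes by 4.33 on the log2 scale in WT and by 3.34 in KO.

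The fall in level went with fewer positive cells. All of the chains were found in 100 of 102 resident-type cells in WT and 202 of 203 in KO, but in 8 of 197 and 13 of 147 monocytes, and no C1q UMI at all was seen in 82.7% and 70.1% of monocytes. Monocytes were also shallower, with a median of 1070 and 1047 UMIs against 2815 and 3231 in resident-type cells, and the part of depth in these shares was not tested. MHC class II cells were mixed, since 56.9% of them in WT and 43.0% in KO lacked any C1q UMI while the 90th percentile was 105.6 and 127.7 C1q UMIs per 10000. Its own markers aside, the leading genes of that state were Ccl17, Klrb1b, Cd209a and Ccr7, which are known from dendritic and lymphoid cells, and unsupervised clusters named by the same markers placed 226 WT and 60 KO cells in a dendritic cluster. The MHC class II state made up 18.8% of the macrophage gate in WT and 10.8% in KO.

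The chains were not in a fixed ratio. C1qa made up 40.9% (39.4 to 42.4) of C1q UMIs in WT resident-type cells and 43.2% (42.1 to 44.2) in KO, with C1qb at 34.9% and 33.5%. In WT monocytes C1qb alone was 63.7% (55.0 to 71.8) and C1qa 19.3% (12.98 to 26.9), and in KO monocytes C1qb was 53.1% (46.1 to 59.9). C1qb was the leading chain in the monocyte, MHC class II, Arg1 hypoxic and Il1b Cxcl2 states of both libraries, those lowest in C1q, and C1qa the leading chain in resident-type cells. In the interferon state C1qa rose in share from 35.2% (33.3 to 37.0) in WT to 41.2% (39.2 to 43.3) in KO. A share among chains does not depend on the scaling of the libraries. Melanoma cells, where these UMIs were at background, had 32.4% and 36.9% C1qa, against 36.7% and 40.6% in the macrophage gate.

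**Figure D2:**
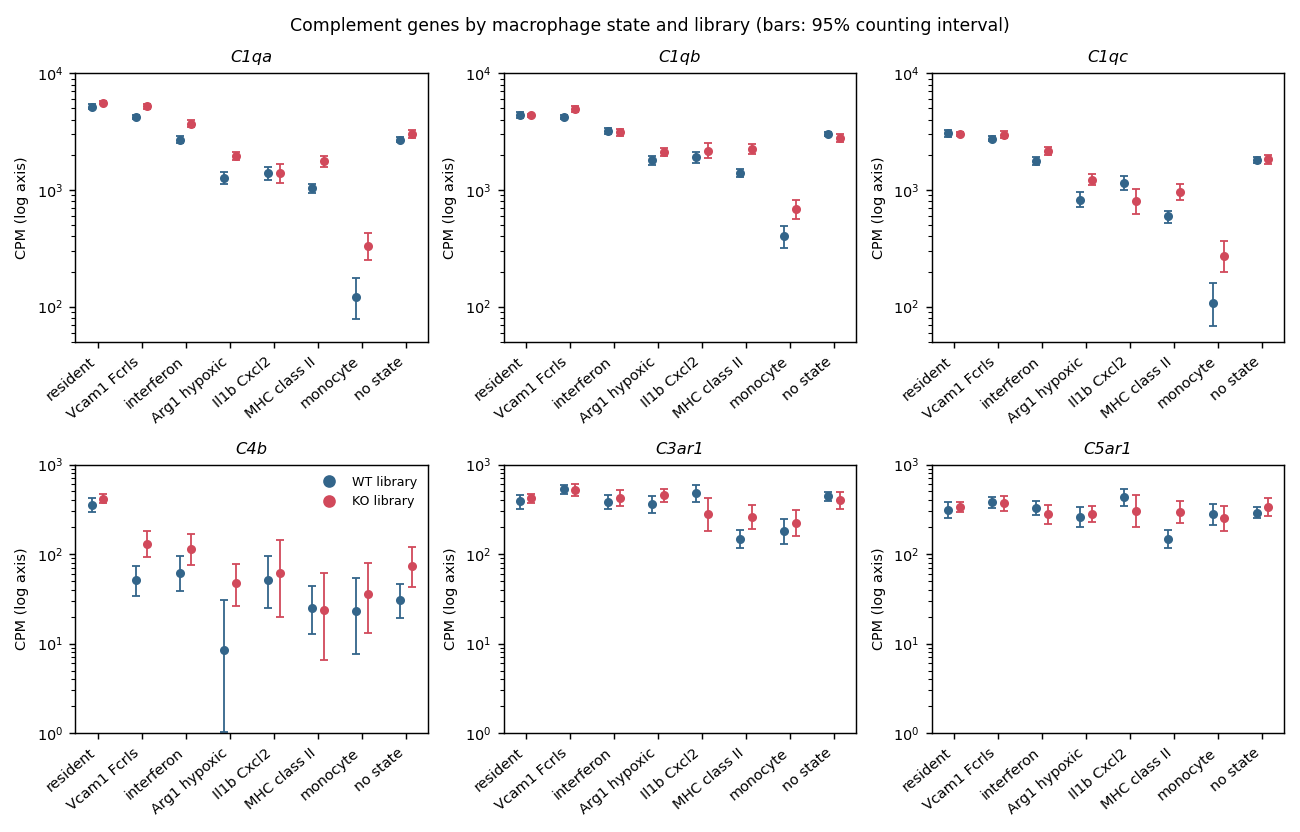
Level of 6 complement genes by macrophage state, in CPM on a log axis, for WT (blue) and KO (red), with 95% Poisson intervals. C1q falls from resident-type cells to monocytes in both libraries, C4b is highest in resident-type cells at 355 and 414 CPM, and the receptors vary least.

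Between the libraries all chains were somewhat higher in KO macrophages. The log2 KO/WT ratio was 0.50 (0.46 to 0.55) for C1qa from 7966 and 7990 UMIs, 0.23 (0.18 to 0.27) for C1qb and 0.31 (0.25 to 0.37) for C1qc. The makeup of the gate differed too, as resident-type cells were 7.01% (5.75 to 8.45) of macrophages in WT and 19.3% (17.0 to 21.8) in KO. With the WT makeup of states in both libraries the ratios were smaller, at 0.30, 0.13 and 0.14. Among the 931 WT and 105 KO Xist-only macrophages they were 0.13 (0.03 to 0.23), -0.08 (-0.19 to 0.03) and 0.03 (-0.10 to 0.16). Resident-type cells were 81 of these 931 WT cells and 33 of the 105 KO cells, so the makeup differed here too. In the 146 Y-only macrophages C1qa was at 0.59 (0.51 to 0.67), C1qb at 0.23 (0.15 to 0.32) and C1qc at 0.36 (0.26 to 0.47). Within resident-type cells C1qa was at 0.12 (0.04 to 0.21), C1qb at -0.02 (-0.11 to 0.08) and C1qc at -0.01 (-0.12 to 0.10). Xist-only resident-type cells, 81 in WT and 33 in KO, turned the sign of C1qa, at -0.32 (-0.47 to -0.17), and put C1qb at -0.36 and C1qc at -0.29. The largest state ratios were in monocytes, 1.46 (0.76 to 2.19) for C1qa, 0.77 (0.35 to 1.19) for C1qb and 1.34 (0.59 to 2.14) for C1qc, on few UMIs.

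C3 (ENSMUSG00000024164, chr17:57203970-57228136, minus strand), the central component of all pathways, was a fibroblast gene here. Fibroblasts held 66.5% of its UMIs in kept cells in WT and 82.8% in KO, at 424 CPM (378 to 474, 310 UMIs) and 636 CPM (586 to 690, 582 UMIs). Of the 498 and 961 C3 UMIs in all barcodes, the ones left out included, these are 62.3% and 60.6%, and the KO barcodes over the mitochondrial limit held 255 C3 UMIs and the WT ones 31. Macrophages were at 29.97 and 22.5 CPM, and no C3 UMI was seen in endothelial cells, which at 3 UMIs allows up to 10.0 CPM in WT and 27.1 in KO. The fibroblast level was carried by part of the cells, with a C3 UMI in 30.8% of 159 WT and 48.7% of 189 KO fibroblasts after thinning (33.3% and 58.0% unthinned), against 0.183% and 0.409% of melanoma cells. The WT cell with the most C3 held 26 UMIs and the KO cell 21.

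Adventitial fibroblasts (Pi16, Clec3b, Dpt) were the peak of C3 among the fibroblast subtypes of kept cells. They are named by markers and not by their place in the tissue. They held 2225 CPM (1892 to 2600) in 28 WT cells and 2100 (1830 to 2399) in 38 KO cells. Vascular cells (Rgs5, Acta2) were lowest, at 43.7 CPM from 6 UMIs and 56.9 CPM from 5 UMIs. All other subtypes lay between, from 163 CPM in cycling to 370 in hypoxic cells in WT, and from 243 in activated to 557 in hypoxic cells in KO. Of the cells, 68 of 189 in WT and 76 of 226 in KO lay near a boundary between subtypes.

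Where C3 was highest the interval of the KO/WT ratio held 0. Over the fibroblast gate the log2 KO/WT ratio was 0.58 (0.38 to 0.79), in adventitial cells it was -0.08 (-0.39 to 0.22), and in cycling cells it was 1.54 (0.91 to 2.19) from 31 and 72 UMIs. With the WT makeup of subtypes the gate ratio was 0.40. It was 0.85 (0.57 to 1.13) in Xist-only fibroblasts, 152 in WT and 58 in KO, and -0.12 (-0.43 to 0.19) for the 50 Y-only fibroblasts. KO cells were thus above WT among Xist-only cells, while the interval of the Y-only cells held 0.

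Among macrophage states C3 was highest in monocytes, the state lowest in C1q. It stood at 191 CPM (137 to 259, 41 UMIs in 31 cells) in WT and 109 CPM (64.4 to 172, 18 UMIs in 17 cells) in KO, a log2 KO/WT ratio of -0.81 (-1.70 to 0.02). Resident-type cells held 2 and 10 C3 UMIs and Vcam1 Fcrls cells 3 and 1.

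C4b (ENSMUSG00000073418, chr17:34728380-34743882, minus strand) encodes C4, which C1s cleaves. Its near-identical neighbour C4a (chr17:34809092-34823464) is not among the genes listed, so the split of reads between the copies is uncertain. Macrophages held 53.6% of C4b UMIs in kept cells in WT and 55.3% in KO, and fibroblasts 27.5% and 22.7%. It was thus made by both classes, at 149 and 176 CPM in fibroblasts and 69.4 and 181 CPM in macrophages. In WT fibroblasts were above macrophages by 1.11 on the log2 scale, and in KO the difference was -0.04. The macrophage level came from resident-type cells, at 355 CPM (292 to 427) in WT and 414 (367 to 466) in KO, with no other state above 62.0 CPM in WT or 131 in KO. Resident-type cells held 112 of 213 and 279 of 393 macrophage C4b UMIs. Among fibroblasts the adventitial cells were again highest, at 718 CPM (535 to 944) and 552 (418 to 715).

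C4b was the only member past 1.5-fold between the macrophage gates. Its UMIs were 213 in WT and 393 in KO, a log2 KO/WT ratio of 1.38 (1.14 to 1.63). The ratio was 0.67 with the WT makeup of states, 1.20 (0.71 to 1.67) in Xist-only cells and 1.69 (1.32 to 2.06) in Y-only cells. Within resident-type cells it was 0.22 (-0.10 to 0.55), and in Vcam1 Fcrls cells, from 29 and 39 UMIs, 1.36 (0.62 to 2.10). It was 0.89 (0.02 to 1.78) in interferon cells, 1.28 (0.28 to 2.26) in cells with no state and 2.50 (0.39 to 5.67) in Arg1 hypoxic cells, the last from 2 and 15 UMIs. In fibroblasts the C4b ratio was 0.24 (-0.12 to 0.60), with 0.77 (0.27 to 1.24) in Xist-only and -0.34 (-0.92 to 0.20) in Y-only cells. Melanoma cells held 54 and 131 C4b UMIs, 2.74 and 6.65 CPM, spread over 52 and 109 cells. That is 18.7% and 26.6% of the library level of C4b, above the 5.39% and 6.76% of the macrophage markers, so that C4b, unlike C1qa, lay above that background.

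Cfb (ENSMUSG00000090231, chr17:34856374-34862518, minus strand), factor B of the alternative pathway, was scarce. It overlaps the read-through gene Gm20547 on the same strand, so its count is uncertain. Kept cells held 45 UMIs in WT and 40 in KO, of which 28 and 19 were in macrophages (9.12 and 8.73 CPM) and 14 and 14 in fibroblasts (19.2 and 15.3 CPM). No difference between the libraries was detectable at this depth, with a log2 KO/WT ratio of -0.06 (-0.99 to 0.83) in macrophages and -0.32 (-1.50 to 0.85) in fibroblasts.

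Serping1 (ENSMUSG00000023224, chr2:84765387-84775444, minus strand), which encodes C1 inhibitor, was the most specific fibroblast gene of the set. Fibroblasts held 84.2% of its UMIs in kept cells in WT and 87.7% in KO, at 715 CPM (655 to 779) and 670 CPM (618 to 726). Macrophages, the source of C1q, held 2 and 1 UMIs. After thinning 64.8% of WT and 62.4% of KO fibroblasts had a Serping1 UMI (77.2% and 66.4% unthinned), against 0.122% and 0.117% of melanoma cells.

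Serping1 differed less among the fibroblast subtypes than C3 did. Adventitial cells were highest, at 1521 CPM (1248 to 1836) and 1616 (1380 to 1881), and the other named subtypes lay between 419 and 755 CPM in WT and between 420 and 527 in KO. Vascular cells, lowest in C3, held 583 CPM of Serping1 in WT and 444 in KO. The gate's log2 KO/WT ratio was -0.09 (-0.26 to 0.08), from 522 and 613 UMIs. It was 0.42 (0.17 to 0.66) in Xist-only fibroblasts and -0.81 (-1.11 to -0.52) in Y-only fibroblasts, both against WT Xist-only cells. These KO subsets thus lay on opposite sides of WT, and KO fibroblasts in neither subset were not compared alone. Hypoxic fibroblasts were lower in KO, at -0.67 (-1.20 to -0.13), from 15 and 45 cells. In endothelial cells Serping1 had 10 UMIs in 4 of 69 WT cells and 19 in 5 of 27 KO cells, a log2 KO/WT ratio of 2.36 (1.19 to 3.63), and 1 KO cell held 11 of the 19.

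**Figure D3:**
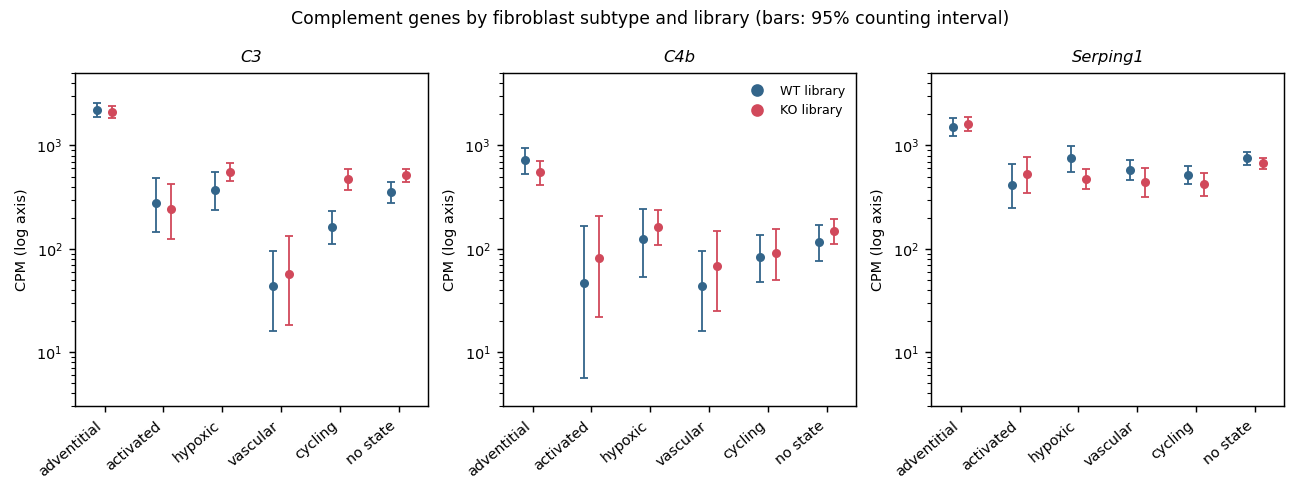
Level of C3, C4b and Serping1 by fibroblast subtype, in CPM on a log axis, for WT (blue) and KO (red), with 95% Poisson intervals. Adventitial cells are highest for each gene in both libraries, and Serping1 is at 419 CPM or more in each subtype while C3 falls to 43.7 and 56.9 CPM in vascular cells.

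C3ar1 (ENSMUSG00000040552, chr6:122847138-122856161, minus strand) and C5ar1 (ENSMUSG00000049130, chr7:16246743-16259540, minus strand), the receptors for C3a and C5a, were macrophage genes. The macrophage gate held 92.0% and 93.0% of C3ar1 UMIs, at 377 CPM (356 to 400) in WT and 405 (379 to 433) in KO. For C5ar1 these shares were 92.1% and 94.6%, at 296 CPM (278 to 316) and 316 (293 to 341). Fibroblasts, the class with most C3, had 1 and 2 UMIs of C3ar1 and 0 of C5ar1, which at 3 UMIs allows up to 4.11 CPM in WT and 3.28 in KO. The 11 KO cells of the neutrophil gate, a class known to carry C5a receptors, held 5 C5ar1 UMIs, 463 CPM (150 to 1080), and 2 of C3ar1.

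The receptors varied far less among states than C1q did. C3ar1 was highest in Vcam1 Fcrls cells, at 530 CPM (472 to 594) and 521 (442 to 610), and lowest in MHC class II cells of WT, at 149 CPM, and in monocytes of KO, at 223 CPM. C5ar1 was highest in Il1b Cxcl2 cells of WT, at 435 CPM (347 to 539), and in Vcam1 Fcrls cells of KO, at 370 CPM (304 to 446). Monocytes, with little C1q, held 279 and 253 CPM of C5ar1, and their intervals (213 to 359 and 183 to 343) overlapped those of resident-type cells.

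For both receptors the interval of the KO/WT ratio over the whole gate held 0. The log2 KO/WT ratio was 0.10 (-0.02 to 0.23) for C3ar1, from 1158 and 882 UMIs, and 0.09 (-0.05 to 0.24) for C5ar1, from 910 and 688. In Xist-only cells it was -0.01 (-0.31 to 0.28) and -0.14 (-0.51 to 0.21). In the MHC class II state, whose leading genes are those of dendritic and lymphoid cells, both were higher in KO, C3ar1 at 0.81 (0.24 to 1.37) and C5ar1 at 0.995 (0.44 to 1.54), as were C1qa at 0.76, C1qb at 0.70 and C1qc at 0.70. Only 7 KO cells of that state were Xist-only and 12 Y-only, too few to divide it by sex.

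Of the 9 members, 7 had at least 50 UMIs over both libraries in macrophages, and 1 of them was at least 1.5-fold higher in KO and 0 lower. Over all 7466 genes with that count, 6.16% were higher and 6.86% lower, so 1 of 7 is too few to set against that share. The median log2 KO/WT ratio was 0.23 over these members and -0.01 over all genes. In fibroblasts 3 members had the count, and 0 were past 1.5-fold in either direction, where 9.81% of 4333 genes were higher and 12.4% lower. C3, at 0.58 on the log2 scale, lay just under the limit.

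**Figure D4:**
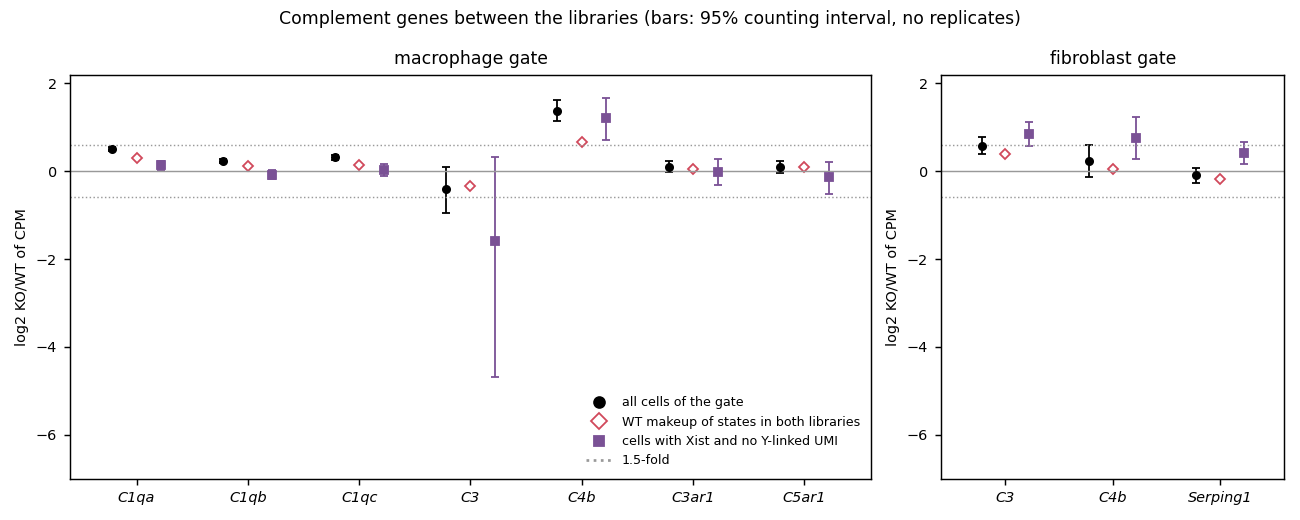
Log2 KO/WT ratio of CPM for members with at least 50 UMIs in the macrophage gate (left) and fibroblast gate (right); circles are all cells and squares Xist-only cells, with 95% counting intervals, diamonds the ratio with the WT makeup of states, and dotted lines 1.5-fold. C4b in macrophages is at 1.38 in all cells and 0.67 with the WT makeup, and C3 in fibroblasts is at 0.58, with 0.85 in Xist-only cells.

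A list of 37 other genes of the pathway, 36 of them in the files, put the members in context. In macrophages 14 had at least 20 UMIs, of which 5 were at least 1.5-fold higher in KO, 1 was lower and 8 were within, with a median log2 KO/WT ratio of 0.24. Of all 9447 genes with that count, 8.89% were higher and 9.53% lower, with a median of -0.01. Ficolin A (Fcna), a recognition protein of the lectin pathway, had 169 UMIs in WT and 706 in KO, at 2.56 (2.32 to 2.81). Vsig4, a macrophage receptor for C3 fragments, had 38 and 137 UMIs, at 2.35 (1.82 to 2.90). Cd55, which dissolves C3 convertases, had 23 and 81, at 2.31 (1.63 to 3.05), and C6, a part of the membrane attack complex, 6 and 35, at 3.04 (1.78 to 4.58). For Cd59a, which blocks that complex, the interval held 0, at 1.17 (-0.05 to 2.48), with 10 and 16 UMIs. Itgax, a chain of complement receptor 4 and also a dendritic cell marker, was lower, with 98 and 25 UMIs, at -1.47 (-2.17 to -0.83). The ratios of the listed genes were not divided into Xist-only and Y-only cells, so sex and genotype cannot be told apart in them.

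In KO, Fcna, Vsig4, Cd55 and C6 lay largely in resident-type cells, which were a larger share of the KO gate, and C6, Fcna and Cd55 were among the 10 genes leading that state. These cells held 96 of the 169 Fcna UMIs in WT and 566 of 706 in KO, 16 of 38 Vsig4 UMIs in WT and 109 of 137 in KO, 16 of 23 Cd55 UMIs in WT and 63 of 81 in KO, and each of the 6 C6 UMIs in WT and 31 of 35 in KO. Of Cd59a they held 2 of 10 and 7 of 16. Within resident-type cells Fcna stood at 304 CPM in WT and 841 in KO, and Vsig4 at 50.7 and 162. Fcna was also higher in KO in the interferon state, at 38.4 and 217 CPM. In Vcam1 Fcrls cells it was at 45.95 and 63.9 CPM, with overlapping intervals, and in KO Arg1 hypoxic cells at 167 CPM. Properdin (Cfp), which stabilises the alternative convertase, was abundant and flat, at 299 and 286 CPM over the gate.

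In fibroblasts 6 genes of the list were counted, with 1 higher, 1 lower and 4 within. Of all 7267 genes with at least 20 UMIs there, 13.3% were higher and 16.0% lower, so that 1 of 6 is near that share. Cd55 had 16 and 62 UMIs, at 1.63 (0.82 to 2.52), while C2, which C1s cleaves, had 31 and 25 UMIs, at -0.63 (-1.46 to 0.17), an interval that held 0. The proteases of C1, C1ra and C1s1, were at 94.5 and 88.6 CPM (C1ra) and 186 and 150 CPM (C1s1) in fibroblasts, against 5.54 and 4.14 CPM of C1ra in macrophages, where C1s1 did not reach 20 UMIs. The C1q chains were thus highest in macrophages, and the transcripts of the proteases and of C1 inhibitor in fibroblasts.

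Melanoma cells had 12 genes of the list with at least 20 UMIs, of which 4 were higher, 1 lower and 7 within, beside 8.63% higher and 4.74% lower of 12239 genes. C2 (31.9 and 23.9 CPM) and Cr1l (30.8 and 36.5 CPM), a regulator of C3 convertases, were the most abundant of them and exceeded every member in these cells. Higher in KO were Cfd (4 and 35 UMIs), Fcna (12 and 36), Cd59a (118 and 179) and Clu (16 and 27), and C1ra was lower (58 and 28), with an interval that held 0 for Clu (-0.19 to 1.74). In these cells Cfd stood at 11.0% of its library level in WT and 2.71% in KO, and Fcna at 7.61% and 7.67%, beside the 5.39% and 6.76% of the macrophage markers, so that no expression by melanoma cells is read from either. Cd59a, at 85.0% and 91.4%, Clu, at 48.8% and 59.7%, and C1ra, at 58.7% and 36.3%, lay above that background. In endothelial cells, where 15.2% of 3119 genes were higher and 17.6% lower, 2 were counted, Cd59a within the limit and Cr1l lower, with 29 and 7 UMIs and an interval that held 0 (-2.05 to 0.61).

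**Figure D5:**
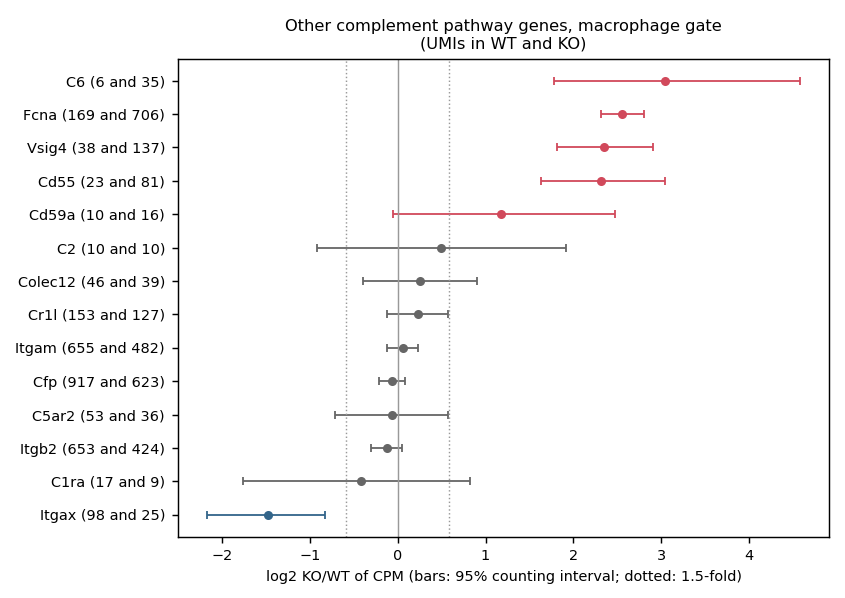
Log2 KO/WT ratio of CPM in the macrophage gate for the 14 other pathway genes with at least 20 UMIs, with 95% counting intervals and UMIs of WT and KO beside each name; red is at least 1.5-fold higher in KO and blue lower. C6, Fcna, Vsig4 and Cd55 lie above 2 and Itgax at -1.47.

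Genes with the most similar pattern were sought over 38 points, each a class, state or subtype in 1 library with at least 10 cells, among 10092 genes. These points share libraries and free RNA, so the correlations describe likeness only. C1qa was most like Trem2 (Pearson r = 0.964), C1qb (0.956) and Hk3 (0.947), C1qb like C1qa, Ccl12 (0.95) and Trem2 (0.949), and C1qc like Adgre1 (0.963), Trem2 (0.956) and Hk3 (0.941). Trem2, Adgre1, F13a1 and Vcan are among the markers used for the gates and states. C3ar1 was most like Msr1 (0.981), C5ar1 (0.975) and F13a1 (0.960), and C5ar1 like Myo1f (0.976), C3ar1 and Nxpe5 (0.974). Serping1 went with Steap4 (0.986), Cd248 (0.983) and Ebf1 (0.971), genes known from perivascular and stromal cells. C3 had looser company in Vcan (0.877), Ifi205 (0.873) and Nfix (0.873), as had C4b in Creb5 (0.880), Rnase4 (0.844) and Ang (0.837), and the scarce Cfb in Nsmf (0.742), Qpct (0.691) and Mcoln2 (0.685).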

How the data were processed

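Tumours were dissociated and run as 10X 3' libraries, of which the labels give kit V3 and the study's methods V2. The authors made the counts with Cell Ranger 3.1.0 on GRCm38, per the labels, and deposited raw UMI counts per gene and barcode for the called cells, 1 matrix per genotype. The smallest barcode held 500 UMIs. No value was normalised before deposit, and 3' UMI counts do not scale with gene length.

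The study's limits on cells were applied, 200 to 5000 genes and no more than 7.5% of UMIs from mitochondria. A cell entered a class where the class markers reached a set number of UMIs per 10000 (50 for melanoma, 40 for macrophages and monocytes, 60 for fibroblasts, 25 for endothelial cells, 20 for dendritic cells) with at least 3 markers seen, and cells over the limit for 2 lineages were set aside as mixed, 146 in WT and 42 in KO. Cells between 0.5 and 2 times the macrophage limit numbered 265 in WT and 165 in KO. States and subtypes were the list with the highest z score, if at least 1. These limits were set after marker levels, but not levels of the members, had been seen. Doublets were left in, except in 1 alternative without the 108 WT and 60 KO kept cells that Scrublet (scanpy 1.11.5) marked. UMIs were summed per gate and library. Sums have exact Poisson intervals, shares Clopper-Pearson intervals and ratios exact conditional binomial intervals, all at 95% and for counting error only. For a ratio a count of 0 was set to 3, and no ratio is given where both counts were at or below 3. Shares of cells were taken after thinning to 2000 UMIs, which left out 1250 WT and 923 KO cells. TMM factors came from edgeR 4.0.16. Gene positions are from GENCODE vM21.

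The members and the gene lists were chosen with earlier results of these data known. Named were all 9 members, those of 37 other pathway genes past 1.5-fold with at least 20 UMIs (1 further gene of the list is not reported here), a few others for context that were chosen after their values were seen (Cfp, C1ra, C1s1, C2 and Cr1l), and the 3 genes most like each member. The ratio step was tested on simulated counts with Poisson error only, which says nothing of variation between mice, tumours or makeups of cells. Scripts ran in Python 3.11.15, with scipy 1.17.1, pandas 2.3.3 and numpy 2.4.6.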

Additional observations from a re-analysis of the deposited data

Results flagged for a closer look

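C1qc and C3ar1 moved in opposite directions between macrophage states, each with counting intervals off 0. C1qc had a log2 KO/WT ratio of 1.34 in monocytes, 0.70 in the MHC class II state, 0.57 in the Arg1 hypoxic state and 0.29 in the interferon state, but of -0.51 (-0.93 to -0.11) in the Il1b Cxcl2 state, from 108 WT and 54 KO cells. That last value rests on 223 and 66 UMIs. The other chains did not fall in that state, with C1qa at 1384 CPM in WT and 1385 in KO and C1qb at 1907 and 2170. C3ar1 stood at 0.81 in the MHC class II state and at -0.76 (-1.49 to -0.09) in the Il1b Cxcl2 state, from 92 and 23 UMIs. The differences between states were not tested.

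C3 also appeared in barcodes that the 7.5% mitochondrial limit left out. In the KO library 340 such barcodes fell in no gate and held 181 C3 UMIs, 140 CPM (120 to 162), against 1 UMI in 206 WT barcodes. Of these UMIs, 174 came from 12 barcodes with at least 3 each, whose mitochondrial share ran from 10.3% to 17.6%. Those 12 barcodes held 40882 UMIs of all genes together, so their C3 level was above that of adventitial fibroblasts. Their leading genes were Cfd (1870 UMIs), which encodes complement factor D, then Hp, Retn, Car3 and Scd1, with Adipoq, which encodes adiponectin, and Fabp4 further down, and in all kept cells together Cfd stood at 2.30 CPM. These barcodes were singled out after their values were seen and were given no cell type name. They enter none of the fibroblast values above.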

How the results depend on the processing

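No paired analysis was possible because there was just 1 library for each genotype. Of 155 values under an alternative, 131 stayed within the counting interval of the value reported or, for the shares of all genes, within 1.5 times of it. This count is no measure of robustness, as some alternatives could move a ratio little. Left out of it were the shares of cells with a UMI, of which 7 moved without thinning and 5 did not. Lifting the upper limit on genes left the gate ratios as they were, and other scalings shift all genes of a gate alike. In Xist-only cells the macrophage log2 KO/WT ratio was 0.13 for C1qa, -0.078 for C1qb (the 1 change of sign among gate ratios whose interval lay off 0), 0.030 for C1qc, -1.60 for C3 (2 KO UMIs) and -0.14 for C5ar1, and the fibroblast ratio 0.85 for C3, 0.77 for C4b and 0.42 for Serping1. The interval of C5ar1 held 0 in both settings. With clusters in place of gates C1qa, C1qb and C1qc were at 0.42, 0.15 and 0.23. With the WT makeup of states, chosen after seeing the data, they were at 0.30, 0.13 and 0.14 and macrophage C4b at 0.67. At a 15% mitochondrial limit C4b was at 1.08 in macrophages, and fibroblasts exceeded macrophages in C4b by 0.70 in WT. Stricter gates put Serping1 in fibroblasts at 0.082. The log2 excess of summed C1q in macrophages over melanoma cells, 7.97 in WT and 7.90 in KO, was 7.83 and 8.15 at the 15% limit, 9.03 and 8.98 without doublets, and 7.52 in WT with stricter gates. That of C3ar1 in macrophages over fibroblasts, 7.53 in KO, was 11.51 with free RNA subtracted. It rests on 2 C3ar1 UMIs in KO fibroblasts, at 2.19 CPM before subtraction and 0.151 after. Why these values moved, the cause, was not tested. Other scalings (TMM, or CPM without mitochondrial and ribosomal protein genes), no upper limit on genes and a minimum of 20 UMIs for the shares of all genes moved no value beyond its interval or by over 1.5 times. With 1 library per genotype, mouse, tumour, sex and genotype cannot be told apart.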
